A study of Mus musculus with 35 samples.

Results

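The 10 regulators of gene expression followed here act in late meiosis and in spermatids: Crem, Fhl5, Tbpl1, Taf7l, Rfx2, Mybl1, Ovol1, Sox30, Sox5 and Brwd1. They were chosen by name, with earlier results of these data known. All 10 were found among the 24411 gene rows of the count tables for pachytene spermatocytes (Spc), round spermatids (RS) and isolated chromatoid bodies (CB). The adult Smg6-cKO mice carried Smg6 with loxP sites around exon 9 (fx/fx) and a Cre transgene driven by the Ngn3 promoter, which is active in early postnatal germ cells, and the controls (CTRL) were littermates without Cre that carried fx/fx or fx/wt, all on a mixed C57Bl/6J and SV129 background. Spc and RS were enriched by sedimentation through a BSA gradient and their poly(A) RNA was sequenced in 3 libraries per genotype and cell type, so that both genotypes shared the floxed gene but not the recombinase. CBs, the germ granules of RS, were pulled down with an antibody to DDX4, and their total RNA was sequenced in 3 cKO and 4 CTRL libraries, each made from the pooled testes of several mice.

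SMG6 is the endonuclease of nonsense-mediated mRNA decay. CREM is the cAMP-responsive activator that switches on many genes of haploid spermatids, and FHL5, also called ACT, is its testis-specific coactivator. TBPL1 (TRF2) and TAF7L are variants of the TATA-binding protein and of a TFIID subunit. MYBL1 (A-MYB) is the master activator of pachytene genes and acts on Rfx2, whose product in turn drives spermatid and cilium genes through X-box sites. OVOL1 is a zinc finger repressor needed for passage through pachytene, SOX30 is required for spermatids to leave the round stage, SOX5 is another HMG-box factor of spermatids with a short testis form, and BRWD1 is a bromodomain protein needed for the expression of haploid genes.

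On GRCm38, Fhl5 lies at chr4:25199908-25242876, Rfx2 at chr17:56775897-56831013 and Sox5 at chr6:143828425-144781977, all on the minus strand. RefSeq promoters on GRCm38.p6 were at hand for 7 of the 10 genes (Fhl5, Rfx2, Sox30, Tbpl1, Taf7l, Sox5 and Brwd1). In the 250 bases before each start, both strands were searched for CRE sites (TGACGTCA and its core TGACG), MYB sites (CAACGG and AACNGTT), an X-box arm (GTTGCCA) and SOX sites (AACAAT and ACAATG, which can overlap by their common ACAAT). The Rfx2 window on the minus strand of chromosome 17, chr17:56831014-56831258, is shown because Mybl1 and Rfx2 belong to the same regulatory chain. Those of Fhl5 (chr4:25242877-25243102, minus strand) and Sox5 (chr6:143947107-143947356, minus strand) are shown because these genes had the lowest fold changes in cKO RS. Capitals mark MYB sites in Rfx2 and SOX sites in the others, and bases covered by an annotated transcript of the gene were left off.
Rfx2: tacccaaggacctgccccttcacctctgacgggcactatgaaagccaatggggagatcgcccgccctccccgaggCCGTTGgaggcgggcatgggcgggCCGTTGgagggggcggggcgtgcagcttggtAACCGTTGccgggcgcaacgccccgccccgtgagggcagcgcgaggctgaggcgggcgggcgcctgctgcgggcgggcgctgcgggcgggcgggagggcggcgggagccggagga
Fhl5: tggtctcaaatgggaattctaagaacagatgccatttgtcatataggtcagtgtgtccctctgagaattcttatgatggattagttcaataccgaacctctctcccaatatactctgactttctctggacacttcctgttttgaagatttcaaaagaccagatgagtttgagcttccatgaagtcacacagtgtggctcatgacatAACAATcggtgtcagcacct
Sox5: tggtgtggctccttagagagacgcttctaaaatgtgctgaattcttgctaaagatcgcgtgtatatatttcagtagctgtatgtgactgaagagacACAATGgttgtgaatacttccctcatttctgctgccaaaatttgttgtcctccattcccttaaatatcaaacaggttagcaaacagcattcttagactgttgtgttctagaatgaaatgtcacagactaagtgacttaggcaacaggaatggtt

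The Rfx2 window held CCGTTG, the reverse complement of CAACGG, beginning 175, 151 and 118 bases before the start. It also held AACCGTT beginning 120 bases before the start, which overlaps the last of the CCGTTG matches. CAACGG occurred in 4.05% and AACNGTT in 3.8% of all 32851 RefSeq promoter windows of this length, and among the 7 member genes with a promoter only Rfx2 had either. The short CRE core was also found in Rfx2 alone of these 7 genes and stood in 17.8% of all windows. The whole CRE palindrome (1.55% of all windows) and the X-box arm (3.66%) occurred in none of the 7. AACAAT (9.42%) was found in Fhl5, 44 bases before its start, and ACAATG (10.7%) in Sox5, 154 bases before a start that lies inside an intron of the longer Sox5 transcripts. A match describes these letters only and shows no binding.

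Depth on genes was 36419197 to 47355837 counts per library in Spc and RS and 2705277 to 12103906 in CBs, so a CB value of the same size rests on fewer reads. Levels of a gene are given as CPM (counts scaled to the same total per library, after TMM correction), on 1 scale for the 12 Spc and RS libraries and on another for the 7 CB libraries, and fold changes are log2 values from edgeR with their standard errors (SE) and Benjamini-Hochberg adjusted p-values over all genes tested. Each comparison was scaled on its own, so the log2 ratio of mean CPM lay above the fitted log2 fold change by a median over the members of 0.11 for Spc and 0.13 for CTRL RS against Spc. Smg6 counts per gene did not check the genotype labels, since only exon 9 is removed: its log2 fold change in cKO was 0.22 (SE 0.17, adjusted p = 0.36) in Spc, -0.01 (SE 0.16, adjusted p = 0.97) in RS and -0.03 (SE 0.16, adjusted p = 0.91) in CBs. The 9 late spermatid markers, protamine and tail genes, summed to 29684 to 39396 CPM in CTRL RS and to 1963 to 2022 in cKO RS. In Spc they summed to 7496, 3650 and 3671 CPM in the CTRL libraries and to 1026, 1413 and 428 in the cKO libraries, so late spermatid RNA was present there too and CTRL library 1 and cKO library 3 stood apart. The 8 spermatid markers were higher in CTRL RS (4482 to 4754 CPM summed) than in CTRL Spc (989 to 1599). The sum of the 8 spermatocyte markers was also higher there (8095 to 8624, against 7175 to 7352 in CTRL Spc and 6841 to 8239 in cKO Spc), so this sum did not set Spc above CTRL RS. Tested gene by gene, 4 of the 8 were lower in CTRL RS and 1 higher (39.7% and 36.2% of all genes), with a median log2 fold change of -0.47. Somatic RNA also differed in RS: the summed level was 209.6 to 343 CPM in cKO against 29.5 to 45.9 in CTRL for 9 macrophage markers, 29.7 to 310.4 against 8.33 to 8.45 for 6 Leydig markers and 94.9 to 270.9 against 68.1 to 82.6 for 10 Sertoli markers, with none of them at 0. Their part in the results below was not tested, and in bulk samples fewer cells of a type and less RNA per cell cannot be told apart.

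Whether the regulators are themselves switched between meiosis and the round stage was asked first in CTRL cells. Most were higher in RS: 7 of 10 rose with an adjusted p of at most 0.05 (36.2% of the 17046 genes tested), 1 fell (39.7% of genes) and 2 did not pass. The median log2 fold change of the 10 was 0.78, against -0.08 over all genes tested. Scaled by library size alone, 5 of the 10 rose and 4 fell, against 25.3% and 53.3% of all genes. The rises past a log2 fold change of 1.5 were those of Fhl5 and Sox5, a call made for 17.0% of genes.

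Crem stood at 424, 423 and 418 CPM in the 3 CTRL RS libraries and at 220.1, 162 and 187 in the 3 CTRL Spc libraries, with no overlap. This was a log2 change of 1.02 (SE 0.12, adjusted p = 3.0e-04). Fhl5, its coactivator, had 344, 310.1 and 396 CPM in RS and 112.5, 54.6 and 62.4 in Spc, a log2 change of 2.06 (SE 0.28, adjusted p = 4.8e-04). Both partners of the CREM switch were thus at their highest mean level in CTRL RS among the 4 cell groups.

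Sox5 rose by 1.80 (SE 0.22, adjusted p = 3.1e-04) on the log2 scale, from 115.8, 65.9 and 74.6 CPM in Spc to 309, 347 and 322 in RS. Sox30 rose by 1.24 (SE 0.13, adjusted p = 2.0e-04), from 166.7, 125.8 and 129.8 CPM to 347, 367 and 379. In each of these SOX genes the lowest RS library lay far above the highest Spc library. Taf7l, the X-linked TAF7 variant, had 15.2 to 20.8 CPM in Spc and 38.6 to 44.0 in RS (log2 fold change 1.09, SE 0.14, adjusted p = 3.5e-04).

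Rfx2 and its activator Mybl1 went opposite ways. Rfx2 had 498, 484 and 433 CPM in Spc and 717, 763 and 777 in RS, a log2 change of 0.54 (SE 0.09, adjusted p = 9.6e-04) that fell to 0.09 (adjusted p = 0.31) with scaling by library size alone. Mybl1 had 100.3, 110.1 and 113.2 CPM in Spc and 44.3, 45.2 and 46.7 in RS, a log2 change of -1.38 (SE 0.08, adjusted p = 3.2e-05). Library size alone moved the median of all genes in this comparison by -0.46. Relative to that median Rfx2 stood at 0.62, a value that a shift common to all genes cannot change.

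Smaller changes were seen for the other genes. Brwd1 rose by 0.19 (SE 0.07, adjusted p = 0.038), from 75.3 to 80.1 CPM in Spc to 97.5 to 99.2 in RS, but it turned to -0.26 (adjusted p = 0.012) with library size alone. Tbpl1 differed by 0.11 (SE 0.08, adjusted p = 0.21), or by -0.34 (adjusted p = 0.0033) with library size alone, and Ovol1 by -0.33 (SE 0.13, adjusted p = 0.054), or by -0.78 (adjusted p = 0.0020) with library size alone and -0.39 (adjusted p = 0.036) with transcript counts summed per gene. For Brwd1 the call was lost without the count filter (0.17, adjusted p = 0.085) and when any 1 of 5 of the 6 libraries was left out (adjusted p 0.068 to 0.17), and for Ovol1 a fall was reached without CTRL RS replicate 2 (-0.44, adjusted p = 0.018) or without CTRL Spc replicate 1 (-0.37, adjusted p = 0.041).

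**Figure D1:**
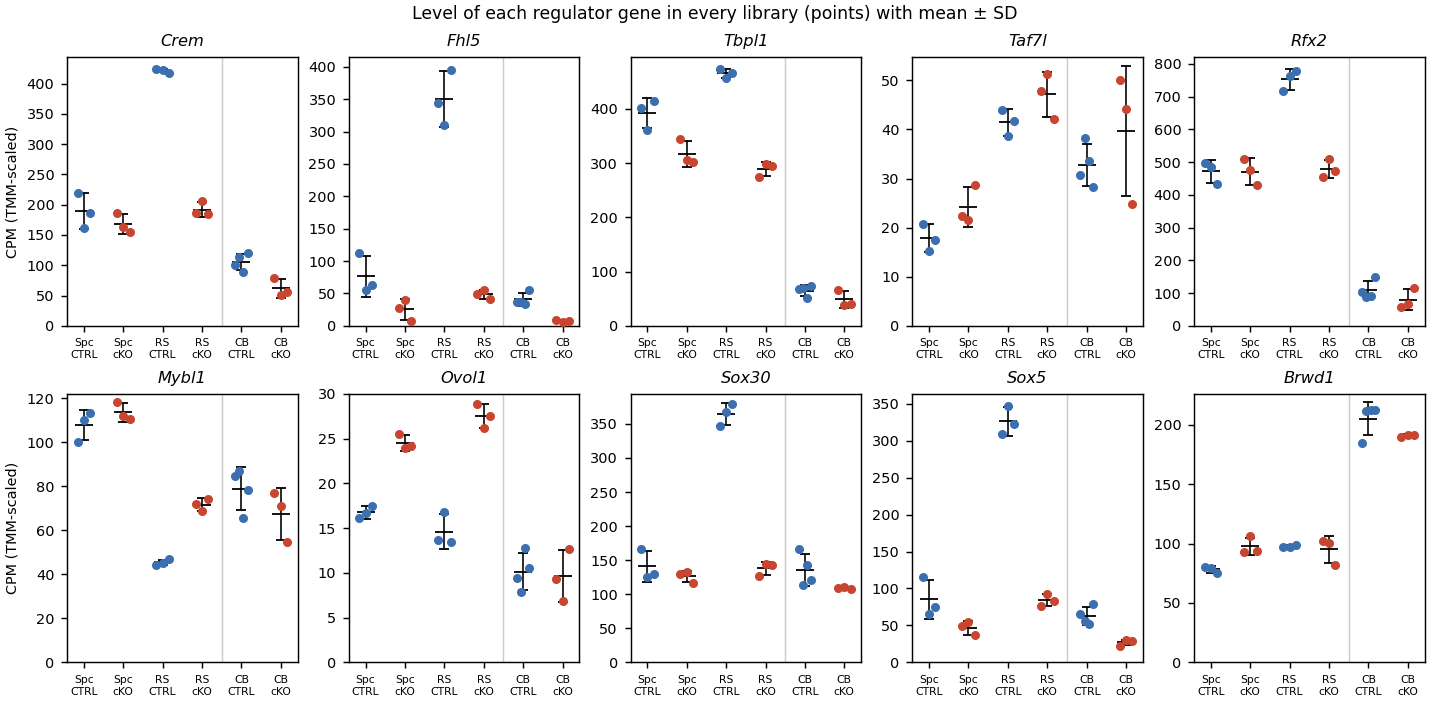
CPM (y axis, TMM-scaled, from 0) of each gene in every library (points; blue CTRL, red cKO) in Spc, RS and CB, with the mean and SD of each group as black bars; the grey line separates Spc and RS from CB, which have another scale. Crem, Fhl5, Sox30, Sox5 and Rfx2 have their highest Spc or RS level in CTRL RS, Mybl1 is lowest there, and Taf7l and Brwd1 overlap between the genotypes in RS.

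The order of levels between genes was read per length, as TPM (transcript counts divided by transcript length, summed per gene and scaled to 1 total in every library). In CTRL Spc, Tbpl1 was the most abundant of the 10 (598 to 685 TPM), followed by Crem (267 to 337) and Rfx2 (233 to 263). In CTRL RS, Tbpl1 (461 to 494 TPM) and Crem (402 to 443) were followed by Fhl5 (311 to 364), Rfx2 (232 to 262) and Sox30 (124.5 to 139.7). Ovol1 (4.84 to 6.62 TPM) and Brwd1 (4.17 to 4.53) came last in CTRL RS. In that group, Sox30 and Sox5 (109.7 to 131 TPM) overlapped. In CTRL Spc, Fhl5 (86.4 to 165.8 TPM), Mybl1 (76.0 to 92.6) and Sox30 (75.6 to 93.2) overlapped, whereas Rfx2 stayed just below the lowest Crem value. Tbpl1 and Crem stayed first and second in cKO Spc and cKO RS, while Fhl5 went from the third place in CTRL RS to the fifth in cKO RS (66.4 to 89.3 TPM).

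In RS, the question was which regulators differ when SMG6 activity is lost from germ cells. Crem, Fhl5, Rfx2, Sox30, Tbpl1 and Sox5 were lower in cKO RS, 6 of 10 genes past the same threshold against 34.3% of the 17492 genes tested. Mybl1 and Ovol1 were higher, against 38.4% of genes, and Taf7l and Brwd1 did not pass. The median of the 10 was -0.66, against 0.11 over all genes tested. Under library size alone, 4 of the 10 were higher and 4 lower, against 58.5% and 18.5% of all genes. Of the 10, Fhl5 and Sox5 fell by more than 1.5 on the log2 scale, as did 11.6% of genes.

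Fhl5 had 344, 310.1 and 396 CPM in CTRL RS and 48.7, 55.4 and 40.8 in cKO RS. Every cKO library was several-fold below every CTRL library, and the log2 fold change was -2.84 (SE 0.13, adjusted p = 9.4e-07), or 7.18-fold lower. Crem had 186, 206 and 184 CPM in cKO RS against 418 to 424 in CTRL (log2 fold change -1.12, SE 0.06, adjusted p = 2.2e-06). The activator was thus lower by a smaller factor than its coactivator.

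Sox5 had 76.6, 92.9 and 82.8 CPM in cKO RS against 309 to 347 in CTRL, a log2 change of -1.94 (SE 0.09, adjusted p = 7.8e-07). Sox30 had 126.9, 143.7 and 143.5 CPM against 347 to 379, a log2 change of -1.39 (SE 0.07, adjusted p = 1.5e-06). The groups did not overlap for either gene. The fold changes of Fhl5, Sox5, Sox30 and Crem stayed below -0.5 with library size alone, at -2.22, -1.33, -0.77 and -0.51.

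The falls of Tbpl1 and Rfx2 were smaller and depended on the scaling. Tbpl1 had 274, 299 and 295 CPM in cKO RS and 473, 457 and 466 in CTRL RS, a log2 change of -0.67 (SE 0.06, adjusted p = 2.4e-05). Rfx2 had 455, 509 and 473 CPM against 717, 763 and 777 (log2 fold change -0.64, SE 0.07, adjusted p = 5.8e-05). With library size alone they were -0.05 (adjusted p = 0.34) and -0.02 (adjusted p = 0.76), and under that scaling the median over all genes was 0.73 in place of 0.11. Relative to the median of all genes, Tbpl1 stood at -0.78 and Rfx2 at -0.75, below the typical gene. Subtracting that median removes a shift common to all genes, so this value cannot differ much with the scaling and is no check of it. A fall of both against 0 was called with TMM and DESeq2 but not with library size. In TPM, which has no such correction, both were higher in cKO RS, Tbpl1 with 499 to 515 against 461 to 494 and Rfx2 with 264 to 281 against 232 to 262. On that scale 6 of the 10 genes were higher without overlap and 4 (Crem, Fhl5, Sox30 and Sox5) lower, against 59.9% and 19.9% of the 17035 genes with a mean of at least 1 TPM, and the median log2 ratio was 0.11 over the members and 0.69 over those genes.

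Mybl1 and Ovol1 went the other way. Mybl1 had 71.8, 68.7 and 74.4 CPM in cKO RS and 44.3, 45.2 and 46.7 in CTRL RS (log2 fold change 0.67, SE 0.07, adjusted p = 8.7e-05). Ovol1 had 28.9, 26.1 and 27.6 CPM against 13.6, 16.8 and 13.4 (log2 fold change 0.93, SE 0.12, adjusted p = 2.7e-04). These are the members that were not higher in CTRL RS than in CTRL Spc, apart from Tbpl1. Both stayed higher with library size alone (1.29 and 1.54).

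Taf7l (38.6 to 44.0 CPM in CTRL RS, 42.2 to 51.4 in cKO RS) gave a log2 change of 0.20 (SE 0.10, adjusted p = 0.11), which passed without cKO RS replicate 3 (0.33, adjusted p = 0.022) and with library size alone (0.82, adjusted p = 1.2e-04). Brwd1 (97.5 to 99.2 and 82.4 to 102.2 CPM) gave -0.03 (SE 0.09, adjusted p = 0.77), or 0.59 (adjusted p = 6.5e-04) with library size alone and 0.12 (adjusted p = 0.23) without cKO RS replicate 3. In TPM both were higher in cKO without overlap, Taf7l with 59.4 to 71.4 against 33.6 to 36.5 and Brwd1 with 7.27 to 9.18 against 4.17 to 4.53. The sign of Brwd1 moved with the shift of all genes, and relative to their median, which takes that shift out, it stood at -0.14. Taf7l was above 0 under each of the 3 scalings (0.13 with DESeq2, adjusted p = 0.35) and passed with transcript counts summed per gene (0.27, adjusted p = 0.036). The spermatid markers moved with the 6 members that fell: 8 of 8 were lower in cKO RS, with a summed level of 4482 to 4754 CPM in CTRL and 1229 to 1445 in cKO, and their part in these differences was not tested. Spermatocyte markers passed in both directions (3 of 8 higher, 4 lower; summed 8095 to 8624 CPM in CTRL, 4830 to 5345 in cKO).

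**Figure D2:**
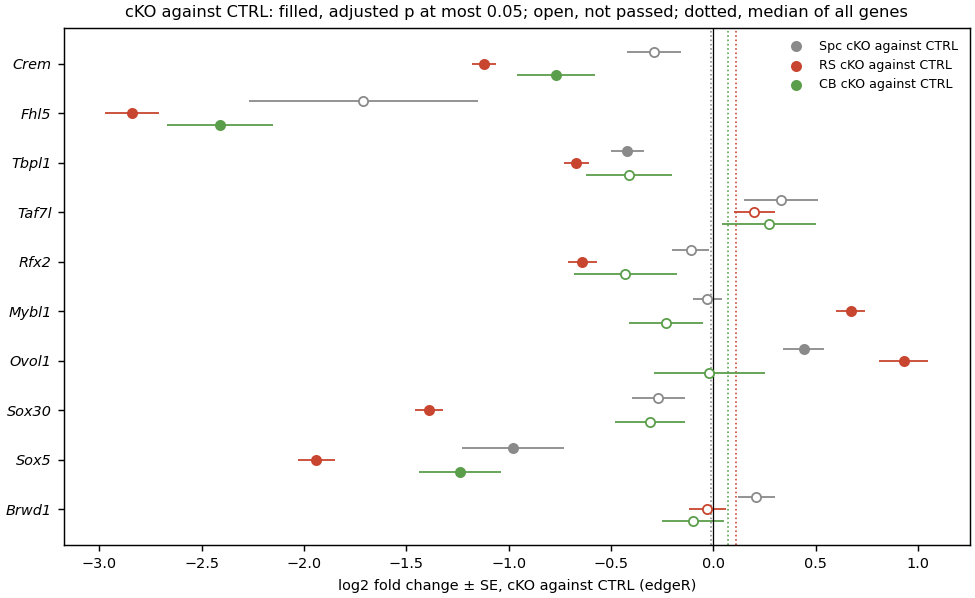
Log2 fold change of cKO against CTRL (x axis, with SE as bars) for each gene in Spc (grey), RS (red) and CB (green); filled points passed an adjusted p of 0.05 and dotted lines give the median of all genes. Fhl5 and Sox5 lie farthest to the left in all 3 sets, and the RS points of Mybl1 and Ovol1 are filled and lie to the right.

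**Figure D3:**
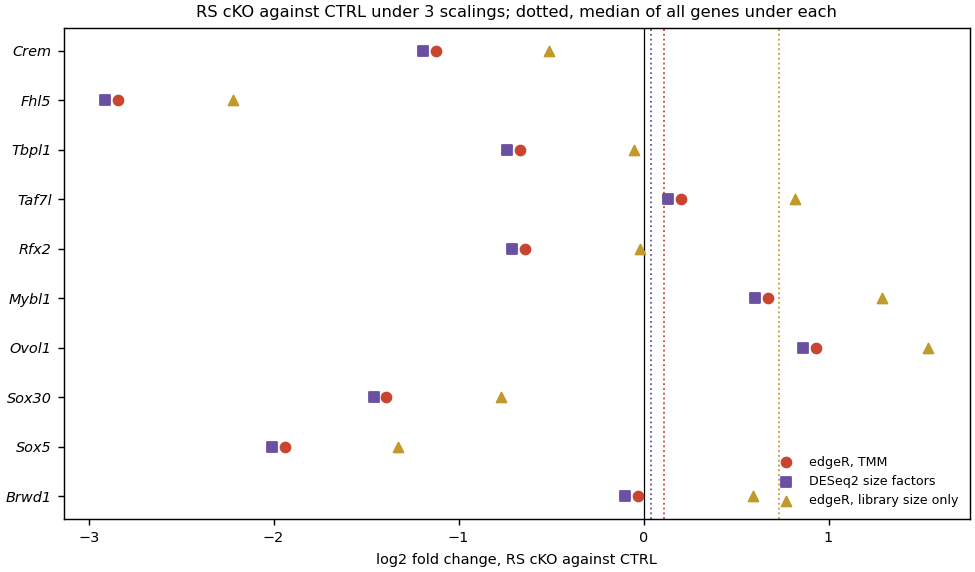
Log2 fold change in RS (x axis) for each gene under TMM (circles), DESeq2 size factors (squares) and library size alone (triangles), with the median of all genes under each as a dotted line. Library size alone shifts all 10 genes by about the shift of that median, which takes Tbpl1 and Rfx2 to about 0 and Brwd1 from below to above 0.

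In Spc the differences between the genotypes were fewer. Tbpl1 and Sox5 were lower in cKO Spc (2 of 10, against 14.1% of the 17321 genes tested), Ovol1 was higher (1 of 10, against 14.0%), and 7 did not pass. The median of the 10 was -0.19, against -0.01 over all genes. Tbpl1 had 401, 361 and 414 CPM in CTRL Spc and 344.5, 306 and 301 in cKO Spc (log2 fold change -0.42, SE 0.08, adjusted p = 0.012), and Ovol1 had 16.1, 16.7 and 17.5 against 25.5, 23.9 and 24.1 (log2 fold change 0.44, SE 0.10, adjusted p = 0.022). Neither gene overlapped between the genotypes.

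Sox5 and Fhl5 varied widely within the Spc groups. Sox5 had 115.8, 65.9 and 74.6 CPM in CTRL and 49.4, 55.1 and 36.5 in cKO, a log2 change of -0.98 (SE 0.25, adjusted p = 0.028). Fhl5 had 112.5, 54.6 and 62.4 CPM in CTRL and 27.4, 40.6 and 8.01 in cKO, and its log2 change of -1.71 (SE 0.56) did not pass with edgeR (adjusted p = 0.059) although DESeq2 gave -1.72 (adjusted p = 0.0057). For both genes, CTRL library 1 was the highest and cKO library 3 the lowest of the 6, the same libraries that had the highest and lowest sums of late spermatid markers, and the part of late spermatid RNA in these values was not tested. Somatic RNA differed in Spc too, with summed levels in cKO against CTRL of 45.3 to 68.7 against 10.7 to 22.0 CPM for macrophage, 549.6 to 1140 against 115 to 365 for Leydig and 194 to 285 against 346 to 934 for Sertoli markers, and its part was not tested. Without cKO Spc replicate 3, the log2 fold change of Sox5 was -0.81 (adjusted p = 0.080) and that of Tbpl1 -0.37 (adjusted p = 0.054). Sox5 also lost its call without CTRL Spc replicate 3 (-1.07, adjusted p = 0.056) or cKO Spc replicate 1 (-0.98, adjusted p = 0.092), Ovol1 lost its call without any 1 of CTRL replicates 2 and 3 and cKO replicates 1 and 3 (adjusted p 0.059 to 0.071), and Fhl5 passed without cKO Spc replicate 2 (-2.24, adjusted p = 0.036).

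Crem (-0.29, SE 0.13, adjusted p = 0.13), Sox30 (-0.27, SE 0.13, adjusted p = 0.16), Rfx2 (-0.11, SE 0.09, adjusted p = 0.36) and Mybl1 (-0.03, SE 0.07, adjusted p = 0.76) gave small log2 fold changes in Spc with overlapping groups. Taf7l (0.33, SE 0.18, adjusted p = 0.20) and Brwd1 (0.21, SE 0.09, adjusted p = 0.12) did not overlap between the genotypes but did not pass.

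A test of the difference between the genotype effects (RS minus Spc) was made in 1 fit of the 12 libraries. It was negative for 6 of the 10 genes (24.1% of the 18171 genes tested) and positive for 1 (19.0%). The negative differences were those of Sox30 (-1.25, SE 0.15, adjusted p = 3.2e-04), Sox5 (-1.09, SE 0.28, adjusted p = 0.0098), Crem (-0.96, SE 0.15, adjusted p = 9.3e-04), Rfx2 (-0.65, SE 0.11, adjusted p = 0.0016), Tbpl1 (-0.38, SE 0.10, adjusted p = 0.014) and Brwd1 (-0.36, SE 0.13, adjusted p = 0.040). The call for Brwd1 was lost with DESeq2 (-0.30, adjusted p = 0.081), without the count filter (-0.32, adjusted p = 0.085), with transcript counts summed per gene (-0.23, adjusted p = 0.19) and without any 1 of CTRL RS replicates 1 to 3, CTRL Spc replicates 2 and 3, cKO RS replicate 3 and cKO Spc replicate 2 (adjusted p up to 0.18). Mybl1 differed by 0.58 (SE 0.10, adjusted p = 0.0016). Fhl5 had the most negative estimate but also the widest error (-1.26, SE 0.62, adjusted p = 0.12), so a larger fall in RS than in Spc was not shown for it. It passed without cKO Spc replicate 3 (-1.69, adjusted p = 0.0053) or CTRL Spc replicate 1 (-1.65, adjusted p = 0.048). Library size alone shifted the median of all genes here from -0.13 to 0.58, under which Sox30 alone kept a negative call, Crem (-0.25, adjusted p = 0.11) and Sox5 (-0.39, adjusted p = 0.24) lost theirs and Tbpl1 turned to 0.33 (adjusted p = 0.0060). In that scaling 3 members were higher and 1 lower, against 44.5% and 3.0% of all genes. Relative to the median of all genes, which takes out a shift common to all of them, Sox30 stood at -1.12, Crem at -0.83 and Tbpl1 at -0.25.

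The step from Spc to RS was then compared within the cKO mice. Sox5 and Taf7l rose (2 of 10, against 18.9% of the 17709 genes tested) and Mybl1 fell (1 of 10, against 26.4%), while 7 genes did not pass. The median of the 10 was 0.12, against 0.01 over all genes. Taf7l rose by 0.94 (SE 0.15, adjusted p = 0.0026), from 21.4 to 28.8 CPM to 42.2 to 51.4, and Sox5 by 0.82 (SE 0.15, adjusted p = 0.0044), from 36.5 to 55.1 CPM to 76.6 to 92.9. Mybl1 changed by -0.69 (SE 0.07, adjusted p = 3.5e-04), from 110.4 to 118.4 CPM to 68.7 to 74.4.

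The 2 comparisons between cell types share no libraries, and the test of their difference is the one just given. Sox30 (0.11, SE 0.08, adjusted p = 0.33), Crem (0.17, SE 0.09, adjusted p = 0.14) and Rfx2 (0.00, SE 0.08, adjusted p = 0.98) did not pass in cKO, where CTRL cells had given 1.24, 1.02 and 0.54. With library size alone, Crem (0.31, adjusted p = 0.0069) and Sox30 (0.25, adjusted p = 0.022) passed in cKO. For Taf7l the steps were 1.09 in CTRL and 0.94 in cKO, each from its own fit, and the 12-library fit, with its own scaling, gave a difference of -0.26 (SE 0.20, adjusted p = 0.32), which does not show that they are alike. Fhl5 gave 0.92 (SE 0.48, adjusted p = 0.15), which passed without cKO Spc replicate 2 (1.52, adjusted p = 0.029). Tbpl1 (-0.15, SE 0.07, adjusted p = 0.11), Ovol1 (0.14, SE 0.09, adjusted p = 0.24) and Brwd1 (-0.06, SE 0.11, adjusted p = 0.65) did not pass.

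**Figure D4:**
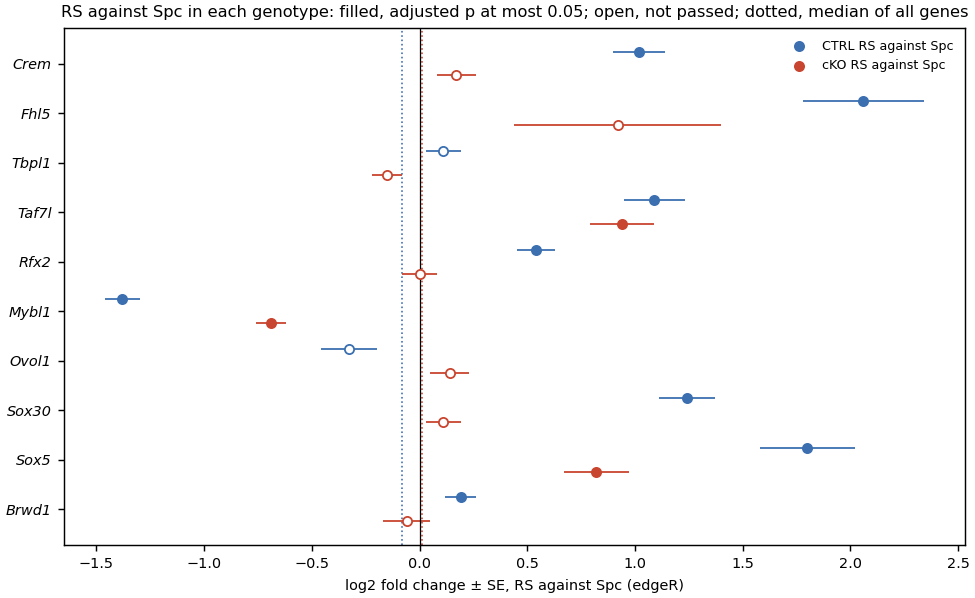
Log2 fold change of RS against Spc (x axis, with SE as bars) for each gene in CTRL (blue) and cKO (red); filled points passed an adjusted p of 0.05 and dotted lines give the median of all genes. The blue points of Crem, Sox30 and Rfx2 lie right of 0 and their red points near 0, and for Taf7l the colours overlap within their errors.

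In isolated CBs the mRNAs of all 10 genes were detected. Fhl5, Sox5 and Crem were lower in cKO CBs (3 of 10, against 18.4% of the 14051 genes tested), none of the 10 was higher (18.1% of genes; 0 at an unadjusted p under 0.05 with edgeR and 0 with DESeq2), and 7 did not pass. The median of the 10 was -0.36, against 0.07 over all genes. Fhl5 was the member past a log2 fold change of -1.5, as were 5.64% of genes.

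Fhl5 had 36.9, 36.7, 33.6 and 55.6 CPM in the CTRL CB libraries and 9.52, 5.99 and 7.14 in the cKO libraries, which rest on 36, 13 and 40 counts. The log2 fold change was -2.41 (SE 0.26, adjusted p = 4.7e-05). Sox5 had 65.6, 56.5, 51.2 and 78.9 CPM against 22.7, 29.9 and 28.2 (log2 fold change -1.24, SE 0.20, adjusted p = 5.5e-04). Crem had 100.8, 113.2, 89.2 and 119.9 CPM against 79.6, 50.6 and 55.7 (log2 fold change -0.77, SE 0.19, adjusted p = 0.0076), and for none of these 3 genes did the groups overlap. The sum of late spermatid markers was also lower in cKO CBs (499 to 572 CPM, against 2384 to 5037 in CTRL). Markers of other cells in cKO and CTRL CBs summed to 36.8 to 121.6 against 20.3 to 30.9 CPM for spermatogonia, 45.8 to 426.8 against 16.1 to 61.3 for Leydig cells, 12.2 to 71.8 against 11.01 to 16.7 for macrophages and 36.2 to 95.4 against 31.95 to 43.9 for Sertoli cells, of which 1 gene was at 0 in cKO. The part of these markers in the differences was not tested.

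Sox30 had 166, 113.6, 142.9 and 120.3 CPM in CTRL CBs and 109, 110.5 and 108.4 in cKO CBs, where its log2 change of -0.31 (SE 0.17, adjusted p = 0.17) did not pass. Tbpl1 (-0.41, SE 0.21, adjusted p = 0.15) passed without cKO CB library 1 (-0.75, adjusted p = 0.011), and Rfx2 (-0.43, SE 0.25, adjusted p = 0.20) without cKO CB library 3 (-0.81, adjusted p = 0.021). Taf7l gave 0.27 (SE 0.23, adjusted p = 0.38), or 0.55 (adjusted p = 0.048) without cKO CB library 3. Mybl1 (-0.23, SE 0.18, adjusted p = 0.33), Brwd1 (-0.10, SE 0.15, adjusted p = 0.63) and Ovol1 (-0.02, SE 0.27, adjusted p = 0.96) did not pass. Brwd1 had 184.6 to 212.7 CPM in CTRL CBs. Per length it came near the end of the order in that group (1.27 to 7.70 TPM), in which Crem had the highest mean (13.5 to 97.7 TPM), and the spread between libraries was wide. In TPM the means in CTRL and cKO CBs were 10.2 and 5.83 for Taf7l, 19.3 and 7.46 for Sox30 and 4.12 and 1.79 for Brwd1. The libraries of the genotypes overlapped for these genes. The other members also had lower mean TPM in cKO CBs, and the share of all genes on that scale was not taken.

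Transcript counts, in which a read was shared among the transcripts it matched, gave the same picture for most genes. Of the 91 annotated transcripts of the 10 genes, 71 were tested in RS, where 59 were lower (36.0% of all transcripts at an adjusted p of at most 0.05) and 9 higher (38.9%) in cKO. Of the 59, 39 are Crem transcripts that share reads, and without Crem 20 of 32 were lower and 9 higher. All 39 Crem transcripts tested lay between -1.47 and -0.80 on the log2 scale, and no Crem transcript held 10% of the gene's counts. Because the reads of common exons are divided, differences between the transcripts of a gene are blunted in these values.

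Of the Brwd1 transcripts tested, 1 of 3 passed in RS. The short Brwd1-203 (2382 nt) was higher in cKO RS (mean 1.51 CPM in CTRL and 2.34 in cKO, log2 fold change 0.69, SE 0.17, adjusted p = 0.0076) and lower in CTRL RS than in CTRL Spc (-1.40, SE 0.15, adjusted p = 2.7e-04), where it held 13.4% of Brwd1 counts. The long Brwd1-201 and Brwd1-202 gave 0.12 and 0.12 (SE 0.08 each, adjusted p = 0.21 and 0.23) in RS and 0.10 and 0.11 between the CTRL cell types. In Spc the order was the other way: Brwd1-201 (0.33, SE 0.10, adjusted p = 0.044) and Brwd1-202 (0.35, SE 0.10, adjusted p = 0.039) were higher in cKO, and Brwd1-203 gave -0.35 (SE 0.14, adjusted p = 0.11). The difference between the transcripts was not tested.

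Both Fhl5 transcripts tested, and likewise both of Rfx2, took nearly equal shares of their reads, so they could not be told apart. Sox5-204, whose start follows the window printed above, and the longer Sox5 transcripts that start farther upstream also had nearly equal values: Sox5-204 had a mean of 48.6 CPM in CTRL RS and 12.8 in cKO RS, and the longer Sox5-201 had 49.5 and 13.2. In the other comparisons, 17 of 70 member transcripts tested passed in Spc (14 lower and 3 higher, against 12.5% and 16.1% of all transcripts), 21 of 54 in CBs (all lower, against 18.1%), 65 of 71 between the CTRL cell types (58 higher and 7 lower, against 37.3% and 41.4%) and 36 of 70 between the cKO cell types (31 higher and 5 lower, against 23.4% and 27.7%). Without Crem, 12 of 31 were lower in CBs, 19 of 32 were higher between the CTRL cell types and 14 of 31 between the cKO cell types.

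Beside the counts of the gene lists that follow, the shares of all genes tested that passed as higher and as lower were 38.4% and 34.3% in RS, 14.0% and 14.1% in Spc, 18.1% and 18.4% in CBs, 36.2% and 39.7% in the CTRL step from Spc to RS and 18.9% and 26.4% in the cKO step. In RS with library size alone they were 58.5% and 18.5%. The lists were chosen with earlier results of these data known.

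Genes known from the field to depend on CREM or TBPL1 were lower in cKO RS: 12 of 12 passed (34.3% of all genes), 11 of them past a log2 fold change of -1.5 (11.6% of all genes), with a median of -3.80 against 0.11 over all genes. Scaled by library size alone, 11 of 12 were lower, against 18.5% of all genes (median -3.18). The lowest were the genes of sperm chromatin packing. Prm2 had a mean of 9711 ± 1549 CPM (SD, n = 3) in CTRL RS and 234 ± 61.8 in cKO RS (log2 fold change -5.36, SE 0.24, adjusted p = 7.5e-07), Prm1 gave -5.06 (SE 0.30, adjusted p = 2.7e-06) and Tnp1 -4.73 (SE 0.23, adjusted p = 9.8e-07). The 9 late spermatid markers are all on this list, so it is no separate measurement. In CTRL, 12 of 12 rose from Spc to RS (median 2.62), and 5 of 12 in cKO (median 1.00). The test of the difference between the steps passed for 6 of the 12, all negative (24.1% of all genes, or 0 of 12 against 3.0% with library size alone), and not for Prm1 (adjusted p = 0.14), Prm2 (0.075), Tnp1 (0.096) or Tnp2 (0.10) among others. In addition, 10 of 12 were lower in cKO Spc (median -2.20) and 12 of 12 in cKO CBs (median -2.64).

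Genes tied to RFX2, mostly of the axoneme and of ciliary transport, were lower in 7 of 11 cases in cKO RS (34.3% of all genes) and higher in 0, with a median of -0.38. None passed a log2 fold change of 1.5 in size there. Spag6l, a central apparatus gene, gave -1.15 (SE 0.08, adjusted p = 8.7e-06) and the ciliary tubule gene Tekt1 -1.06 (SE 0.06, adjusted p = 3.1e-06), both chosen after their values were seen. With library size alone 4 were lower (18.5% of all genes) and 5 higher (58.5%). In Spc 2 were lower and 2 higher (median -0.08), in CBs 3 lower (median -0.06), in the CTRL step to RS 9 rose and 1 fell (median 0.41), and in the cKO step 3 rose and 3 fell (median 0.04).

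Genes tied to MYBL1, many of the piRNA pathway, passed in both directions in RS: 4 of 11 were higher and 5 lower in cKO (median 0.06), against 38.4% and 34.3% of all genes, and with library size alone 8 were higher and 1 lower, against 58.5% and 18.5%. Tdrd5, a tudor protein of germ granules, had a mean of 57.9 ± 9.40 CPM (SD, n = 3) in cKO RS and 20.04 ± 3.88 in CTRL RS (log2 fold change 1.54, SE 0.17, adjusted p = 9.7e-05). It is a gene of spermatocytes, with 200.4 ± 29.9 CPM in CTRL Spc. Rfx2 is itself on this list. In Spc 3 were higher and 1 lower (median 0.01), in CBs 2 were lower (median -0.06), and from Spc to RS 7 fell and 2 rose in CTRL (median -0.87) and 8 fell and 1 rose in cKO (median -0.83).

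Among partners and paralogs of the 10 regulators, 8 of 22 were higher and 9 lower in cKO RS (median 0.13), shares near the 38.4% and 34.3% of all genes. Kif17, the kinesin that moves FHL5 out of the nucleus, was lowest (881 ± 122 CPM in CTRL RS, 201 ± 30.9 in cKO RS, SD, n = 3; log2 fold change -2.12, SE 0.14, adjusted p = 4.5e-06). Highest were Fhl2, a paralog of Fhl5 expressed mostly outside germ cells (2.11, SE 0.43, adjusted p = 0.0026, at a mean of 4.18 CPM in cKO RS), and Taf1, the largest TFIID subunit (1.57, SE 0.18, adjusted p = 1.0e-04). Under library size alone 14 were higher and 8 lower, against 58.5% and 18.5% of all genes. In Spc 2 of 23 were higher and 6 lower (median -0.18), in CBs 2 of 20 higher and 8 lower (median 0.03), and from Spc to RS 11 of 22 rose and 7 fell in CTRL (median 0.26) and 8 of 23 rose and 6 fell in cKO (median 0.07).

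Other regulators of haploid transcription, a list that also holds Stra8, Zbtb16 and Sohlh1, which act in spermatogonia and at meiotic entry, were lower in 9 of 17 cases and higher in 6 in cKO RS (median -0.54), against 34.3% and 38.4% of all genes, or 4 lower and 8 higher with library size alone (18.5% and 58.5% of all genes). Of those higher, Stra8 and Zbtb16 (1.13, adjusted p = 0.0080) are such earlier factors. Spz1, a helix-loop-helix factor of the testis, had a mean of 2486 ± 190.8 CPM (SD, n = 3) in CTRL RS and 260 ± 9.77 in cKO RS (log2 fold change -3.24, SE 0.08, adjusted p = 1.3e-07). Stra8, the gatekeeper of meiotic entry, was the highest (1.92, SE 0.37, adjusted p = 0.0018), at 14.7 ± 5.61 CPM in cKO RS and 3.91 ± 1.69 in CTRL RS, and spermatogonia markers, to which it belongs, summed to 74.0 to 115.4 CPM in cKO RS and 42.3 to 53.5 in CTRL. In Spc 1 was higher and 6 lower (median 0.02), in CBs 3 higher and 4 lower (median -0.09), and from Spc to RS 7 rose and 2 fell in CTRL (median 0.16) and 7 rose and 5 fell in cKO (median 0.30).

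**Figure D5:**
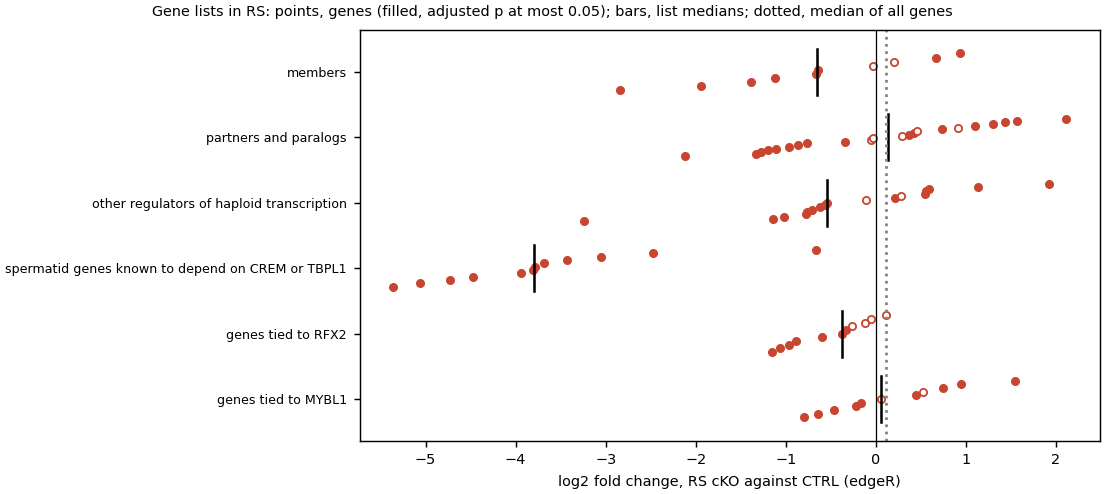
Log2 fold change of cKO against CTRL in RS (x axis) for every gene tested of the 10 regulators and of 5 gene lists (rows); filled points passed an adjusted p of 0.05, black bars are list medians and the dotted line is the median of all genes. Genes known to depend on CREM or TBPL1 all lie below 0 with a median of -3.80, and the partners and MYBL1 lists spread to both sides.

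The genes whose log2 CPM followed a member most closely over the 12 Spc and RS libraries, which share depth and cell fraction within a group, were found by Pearson's r as a description. For Fhl5 they were Sppl2c and Asb17 (r = 0.999 each) and for Sox5 Spaca4 and 1700113H08Rik (0.999 each). Sox30 was most like Ccpg1 (0.997) and Tex2 (0.995), Mybl1 like Phf2 and Atp6v1e1 (0.996 each), and Crem like 1700003M02Rik and Ccdc89 (0.995 each). Rfx2 was most like Med25 (0.994) and Ulk4 (0.993), Ovol1 like Zfp41 (0.989) and Irak3 (0.987), Taf7l like Speer4a and Speer4e (0.988 each), Tbpl1 like Ppp2r5e and Psmd12 (0.985 each), and Brwd1 like Son (0.954) and Trpc2 (0.918). The Speer4 genes are near-identical copies, so their counts are uncertain.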

How the data were processed

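Poly(A) RNA of Spc and RS (3 libraries per genotype and cell type) and total RNA of CBs (4 CTRL, 3 cKO) had been sequenced with strand. Per the labels and the study's methods, the authors removed adapters (cutadapt 2.8), mapped the reads to GRCm38 (STAR, for which the sources name different versions) and deposited raw counts per gene and repeat from TEtranscripts in reverse stranded mode. They also deposited estimated counts per transcript, fractions of shared reads included, which were rounded here. Repeat rows were left out. No replicate pair agreed within counting noise. Spc and RS libraries are described as biological replicates, with the series notes naming 1 mouse as the source of both cell types and the methods several testes. No label ties a replicate number to a mouse.

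Genes with at least 10 counts in at least 3 libraries of a comparison were tested with the quasi-likelihood F-test of edgeR 4.0.16 (R 4.3.3) after TMM scaling, on the groups compared only, with Benjamini-Hochberg adjustment over all genes. The interaction was fitted on all 12 Spc and RS libraries. Transcripts needed 20 counts in 3 libraries. A call of size needed a change of 1.5 or more on the log2 scale beside the p threshold of 0.05. The fits were tested first on simulated data in which 200 genes changed by 2 on the log2 scale. They found 83.85 to 92.31% of these in the comparisons between groups and 67.01% in the interaction. Of the genes found, 5.85 to 7.77% were false. Far fewer genes changed there than were called in the real data. DESeq2 1.42.0, library size alone, no filter on counts, gene sums of the transcript counts, replicate number as a block and leaving out each library were tried as alternatives.

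The 10 genes, the lists (partners and paralogs, other regulators of haploid transcription, genes known to depend on CREM or TBPL1, genes tied to RFX2, genes tied to MYBL1) and the marker lists (spermatogonia, spermatocyte, spermatid, late spermatid, Sertoli, Leydig, macrophage, peritubular myoid, endothelial) were chosen with earlier results of these data known. Named besides the 10 were Smg6, at most the 3 highest and 3 lowest genes of each list past the call of size in RS, the 2 genes most like each regulator over 12 libraries, and transcripts with at least 10% of a gene's counts. Outside this rule, Spag6l and Tekt1 were named after their values were seen, and Tnp2, Zbtb16 and Sohlh1 were named as well. Myoid markers summed to 8.78 to 10.6 CPM in cKO RS and 8.45 to 11.9 in CTRL RS, and endothelial markers to 6.44 to 7.51 and 20.6 to 29.7.

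The samples with the same number were checked for pairing by the correlation of their deviations from group means, and were not taken as pairs.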

Additional observations from a re-analysis of the deposited data

Results flagged for a closer look

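The genotype effect differed between RS and Spc, by the test of the difference itself, for Sox30 (-1.25 on the log2 scale, RS minus Spc), Sox5 (-1.09), Crem (-0.96), Rfx2 (-0.65), Tbpl1 (-0.38), Brwd1 (-0.36) and Mybl1 (0.58). With library size alone the all-gene median was 0.58 in place of -0.13, and Sox30 alone kept a negative call (-0.54, adjusted p = 0.0039) while Tbpl1 turned to 0.33 (adjusted p = 0.0060). Relative to that median, which takes the common shift out, Sox30 stood at -1.12, Crem at -0.83 and Tbpl1 at -0.25. Brwd1 lost its call with DESeq2 (-0.30, adjusted p = 0.081), without the count filter (-0.32), with transcript counts summed per gene (-0.23) and without any 1 of 7 of the 12 libraries. The late spermatid marker sum, 29684 to 39396 CPM in CTRL RS and 1963 to 2022 in cKO RS, moved in the same comparison, and its part was not tested.

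In the 4 CTRL CB libraries, 1 value stood apart from the others for Fhl5 and for Brwd1. For Fhl5 it was library 4 (55.6 CPM, with a gap of 0.852 of the range to the nearest), and for Brwd1 library 1 (185 CPM, 0.963 of the range). Chance alone flags about 1 in 20 such groups.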

How the results depend on the processing

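The 6 falls and 2 rises in RS kept their direction and call with DESeq2, without the count filter and without any single library. In TPM, Tbpl1 and Rfx2 were higher in cKO RS without overlap. With library size alone both lost their call (-0.05, adjusted p = 0.34, and -0.02, adjusted p = 0.76). Under that scaling, 4 members were higher and 4 lower in RS, 4 lower in the CTRL step and 4 higher in the cKO step. In the interaction 3 were higher and 1 lower. The shares of all genes with library size alone were 58.5% higher and 18.5% lower in RS, 53.3% lower in the CTRL step and 25.3% higher in the cKO step. In the interaction they were 44.5% higher and 3.0% lower. Signs turned there for Brwd1 in RS (0.59, passed), the CTRL step (-0.26, passed), the cKO step (0.08, not passed) and the interaction (0.34, not passed), for Tbpl1 in the CTRL step (-0.34, passed) and the interaction (0.33, passed), and in the interaction for Rfx2 (0.06) and Taf7l (0.44), neither of which passed, while lower member transcripts numbered 13 in CBs (6191 transcripts called in all) and 13 in the CTRL step. With transcript counts summed per gene, Brwd1 was 0.14 in RS and -0.08 in the CTRL step. Ovol1 then fell in the CTRL step (-0.39, adjusted p = 0.036). Its interaction was called positive there (0.43, adjusted p = 0.049) and with DESeq2 (0.43, adjusted p = 0.013). Without the count filter, Brwd1 lost its calls in the CTRL step (0.17) and the interaction (-0.32), the latter also with summed transcripts (-0.23). Member transcripts higher without it numbered 1 in Spc, 1 in CBs and 16 in the cKO step, against 3, 0 and 31 with it. With the filter, 16.1%, 17.8% and 23.4% of all transcripts were higher in these comparisons. The shares without it are not given, so these counts are not read as a result about the members. Leaving out 1 library at a time gave, in Spc, 0 to 1 members higher, 0 to 3 lower, 2042 to 4234 genes and 7110 to 14023 transcripts called, and 1 to 3 member transcripts higher and 1 to 14 lower. In CBs it gave 0 to 1 members higher, 3 to 4 lower, and 0 to 2 member transcripts higher and 8 to 23 lower. In all, 3863 to 5243 genes and 7546 to 10390 transcripts were called there. Leaving out 1 library gave 1 to 2 members lower in the CTRL step (11319 to 12908 genes called in all). In the cKO step it gave 2 to 3 members and 14 to 33 member transcripts higher (5537 to 7754 genes and 21440 to 27601 transcripts called in all). In the interaction it gave 1 to 2 members higher and 5 to 7 lower (6012 to 8920 genes called in all). Signs turned for Mybl1 in Spc (-0.06 to 0.00), Brwd1 in RS (-0.04 to 0.12) and in the cKO step (-0.12 to 0.07), Rfx2 in the cKO step (-0.05 to 0.12), and Ovol1 (-0.28 to 0.14) and Taf7l (-0.01 to 0.55) in CBs. Beyond what the scalings show, the cause was not tested.

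Samples with the same replicate number did not deviate together in every pair (correlations of 0.18, -0.22 and 0.36 in Spc, -0.12, -0.18 and 0.09 in RS, -0.14, -0.07 and -0.30 between CTRL cell types, and -0.07, 0.61 and 0.34 between cKO cell types). Samples with different numbers gave -0.52 to 0.42 in Spc and -0.15 to 0.22 in RS. Between cell types they gave -0.30 to 0.52 in CTRL and -0.52 to 0.23 in cKO. The values of 0.61 and 0.34 lay above the last of these ranges, so pairing there was not settled. With the replicate number as a block, 0 members were higher in Spc (Ovol1 0.44, adjusted p = 0.06), member transcripts there were 1 higher and 8 lower, Brwd1 in the CTRL step had an adjusted p of 0.09, and Fhl5 rose in the cKO step (1.16, adjusted p = 0.014). For CBs, no paired analysis was possible because the set of numbers in the CB column names differs from that in the sample labels, so that CB libraries are numbered here only to name them. In CBs, Fhl5 had 13 to 40 and Ovol1 15 to 71 counts per cKO library.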
